A study of Mus musculus with 12 samples.

Results

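Progenitor accessible domains that were absent from the list of iHoxc10 neurons but present in every other day 4 list are described here. A domain is a stretch of open chromatin that the authors' caller marked in an ATAC-seq experiment, and "lost" means only that no domain of a given list overlapped it. Members were chosen by 5 lists: a progenitor domain at least 150 bp wide on chromosomes 1 to 19, X or Y had to overlap, by at least 1 bp, a domain of the No Dox control, of iHoxc6 and of iHoxc9, and no domain of iHoxc10. This gave 1737 members among 41544 progenitor domains of that width and 87916 progenitor domains in all. Of the 26985 domains that the No Dox control, iHoxc6 and iHoxc9 lists all held, the members were 6.44% (6.15 to 6.74). Because the lists chose the members, this share and the widths in those lists are a description. The comparison sets followed the same form of rule: 25248 domains that iHoxc10 also held ("kept"), 2605 lost under Hoxc9 only, 2854 lost under both posterior factors and 206 lost under Hoxc6 only.

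The study followed mouse embryonic stem cells (ESCs) that were patterned towards spinal motor neurons as embryoid bodies (EBs). EBs before patterning and progenitors after 2 days of 1 µM all-trans retinoic acid (RA) and 0.5 µM smoothened agonist (SAG) came from the line Ainv15(iCre). The day 4 groups received RA and SAG for 4 days. Ainv15(iFlag.Hoxc6), Ainv15(iFlag.Hoxc9) and Ainv15(iFlag.Hoxc10) cells received 3 µg/mL doxycycline (Dox) over the last 48 h, which switched on 1 Flag-tagged copy of the named gene, and the No Dox control was the iHoxc6 line left uninduced. The authors made 1 list for each of the 6 groups from its 2 samples together. The lists hold coordinates without heights or read counts, so depth is unknown, no spread between replicates could be had, and no difference below was tested. Intervals in parentheses after shares are 95% Wilson intervals and cover the counting of domains only. iHoxc10 is a different line from those of progenitors and control, so the line and the induced factor cannot be told apart.

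Hox transcription factors assign positional identity along the head-to-tail axis. In the spinal cord Hoxc6 marks brachial, Hoxc9 thoracic and Hoxc10 lumbar levels, and the latter genes belong to the posterior group, whose proteins recognise AT-rich sequence with a TTTAT core, whereas anterior and central Hox proteins bind TAAT-containing sites, often with PBX and MEIS cofactors. Distal accessible regions are commonly enhancers, which are used in few cell types, while promoters of widely used genes stay open in most. EB cells retain features of pluripotent cells, and patterning replaces many of their distal regions.

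The list of iHoxc10 was the shortest, with 56232 domains against 63504 in iHoxc9, 91181 in iHoxc6, 88806 in the No Dox control and 94875 in EBs. The control list had additional constant columns and a name with another day than its label, and whether its calling settings were those of the other lists is not given in the sources used here. Of marker promoters, those of Pou5f1 and Nanog, which maintain pluripotency, held a domain in EBs and in no other list, whereas that of Esrrb, also a pluripotency gene, held one in all 6. Promoters of the motor neuron genes Mnx1, Isl1 and Lhx3 and of the progenitor genes Olig2 and Nkx6-1 held one in all 6 lists, including EBs, so these promoters did not separate the stages. The promoter of Chat, the enzyme that makes acetylcholine, held one in every list but iHoxc9. Promoters of Myod1 and Sox17, genes of the muscle and endoderm lineages, also held one in every list, that of the neural crest gene Sox10 held one in the control only and that of the blood gene Gata1 in no list.

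Sequences of 6 members are shown because the gene with the nearest TSS (transcription start site) acts in patterning or cell adhesion and they range from no Hox core to 3. Genes were assigned by the nearest TSS alone, which for these sites lay 1.2 to 941.6 kb away, and "near" a gene means only this assignment. Each is the central 150 bp of the domain, read 5′ to 3′ on the plus strand of GRCm38 (mm10). Capitals mark TTTAT or TAAT on either strand (ATAAA and ATTA on the plus strand). The lists were taken to count starts from 0, an assumption that could shift each position by 1 bp. The sites are chr1:105012827-105012976 (Cdh20), chr8:12430490-12430639 (Sox1), chr14:16573852-16574001 (Rarb), chr9:74868146-74868295 (Onecut1), chr3:143790147-143790296 (Lmo4) and chr13:79141565-79141714 (Nr2f1).
Cdh20: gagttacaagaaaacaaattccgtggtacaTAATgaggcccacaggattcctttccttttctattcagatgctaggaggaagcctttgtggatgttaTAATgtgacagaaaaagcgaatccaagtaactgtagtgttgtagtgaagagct
Sox1: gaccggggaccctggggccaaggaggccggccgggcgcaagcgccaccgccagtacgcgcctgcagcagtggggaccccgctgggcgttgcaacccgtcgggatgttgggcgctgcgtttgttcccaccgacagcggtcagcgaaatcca
Rarb: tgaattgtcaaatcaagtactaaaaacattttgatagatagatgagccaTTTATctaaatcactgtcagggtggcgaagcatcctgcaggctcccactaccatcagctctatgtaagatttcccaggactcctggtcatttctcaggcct
Onecut1: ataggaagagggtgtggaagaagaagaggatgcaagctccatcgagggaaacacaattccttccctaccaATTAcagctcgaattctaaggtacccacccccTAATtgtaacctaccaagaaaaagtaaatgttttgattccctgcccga
Lmo4: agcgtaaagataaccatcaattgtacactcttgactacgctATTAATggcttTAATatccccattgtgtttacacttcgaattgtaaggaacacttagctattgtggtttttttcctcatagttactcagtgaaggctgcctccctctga
Nr2f1: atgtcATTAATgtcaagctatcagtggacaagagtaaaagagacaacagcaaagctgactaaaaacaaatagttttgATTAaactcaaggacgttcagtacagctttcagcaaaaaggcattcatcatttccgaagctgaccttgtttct

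The intergenic sites of Cdh20, Lmo4 and Nr2f1 held 2, 3 and 3 TAAT matches, and the intronic site of Onecut1 held 2. The intronic site of Rarb held 1 TTTAT match, and the intergenic site of Sox1, with 71.3% GC, held none of either. The Nr2f1 site also held 1 match to AGGTCA, the hexamer bound by retinoic acid and other nuclear receptors. Among all members, 25.3% (23.3 to 27.4) had a TTTAT and 46.4% (44.1 to 48.8) a TAAT in the central 150 bp, against 22.0% and 39.7% of all progenitor domains at least 150 bp wide.

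Members were narrow in every list that held them. Their median width in progenitors was 297 bp (quartiles 205 and 401 bp), against 599 bp (346 and 954 bp) for kept domains and 292 and 340 bp for domains lost under both posterior factors and under Hoxc9 only. The widest overlapping domain had a median of 232 bp in the No Dox control, 188 bp in iHoxc6 and 99 bp in iHoxc9. In 36.0% (33.8 to 38.3) of members the iHoxc9 domain was under 50 bp, against 5.40% (5.13 to 5.68) of kept domains, and in 31.1% (29.0 to 33.4) it was at least 150 bp. These widths come from the lists that chose the members and show only how the rule picked them. Within the rule's limits, 102 members were 150 to 159 bp wide, and 159 domains of 140 to 149 bp met the rest of it. Another 9 members had an iHoxc10 domain within 10 bp, and 9 kept domains were overlapped by iHoxc10 over at most 10 bp.

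**Figure D1:**
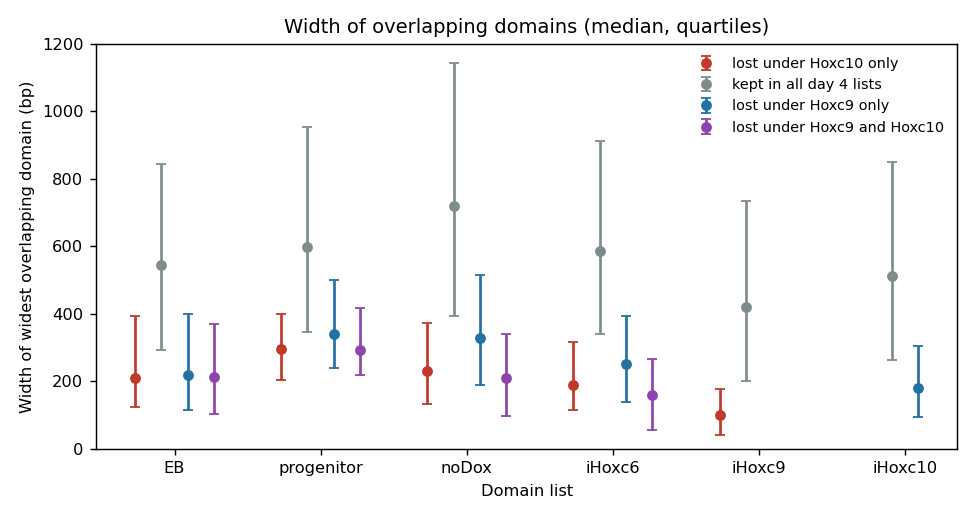
Median width in bp of the widest overlapping domain in each of the 6 lists, with bars from the lower to the upper quartile, for domains lost under Hoxc10 only (n = 1737), kept domains (n = 25248) and the other lost sets, the EB values being over domains that EBs held. The members' medians fell from 297 bp in progenitors to 99 bp in iHoxc9, and no value stands where the rule allowed no overlap.

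The rule allowed no overlap with the iHoxc10 list, so every member has a gap to it by construction. Whether these gaps were large or small for the genome was not tested. The gap to the nearest iHoxc10 domain had a median of 10280 bp (quartiles 2462 and 28833 bp), and 4.78% (3.87 to 5.89) of members had one within 200 bp. Domains lost under both posterior factors had a like median of 10410 bp.

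The EB list was not used by the rule and so gives a measure that did not choose the members. Of the 1737 members, 982 (56.5%, 54.2 to 58.8) overlapped an EB domain and so were open before patterning. The share was 81.9% (81.4 to 82.4) of kept domains, 49.0% (42.3 to 55.8) of those lost under Hoxc6 only, 38.9% (37.1 to 40.8) of those lost under Hoxc9 only and 29.7% (28.1 to 31.4) of those lost under both. The background of each loss was 9.35% of eligible domains for Hoxc9 only, 8.80% for both posterior factors and 0.809% for Hoxc6 only. The members therefore stood between the kept domains and both other posterior sets, with intervals that did not overlap, while their interval overlapped that of domains lost under Hoxc6 only. The sets differ in which day 4 lists had to hold a domain, and the members' share depended on this. Without the iHoxc9 list in the rule, EBs held 39.9% of 4591 domains.

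The order was the same away from promoters and within width classes. Away from promoters, where a promoter is a domain within 1 kb of the TSS of a protein-coding gene, EBs held 52.0% (49.4 to 54.5) of members, 65.2% (64.4 to 66.1) of kept domains, 33.7% (31.8 to 35.6) of those lost under Hoxc9 only and 26.6% (24.9 to 28.3) of those lost under both. Among distal domains of 150 to 249 bp the shares were 58.4% (54.3 to 62.3), 70.1%, 39.1% and 31.1% in the same order, and at 400 bp or wider they were 42.0% (36.9 to 47.2), 63.3%, 29.3% and 24.9%. When each day 4 list was shortened to the widest 56232 domains, the members fell to 1173, of which EBs held 57.2% (54.4 to 60.0), against 40.3% and 29.3% of those lost under Hoxc9 only and under both and 57.4% (52.6 to 62.2) of the 404 lost under Hoxc6 only. Where a list had to cover at least 50% of a domain to hold it, the shares were 72.9% (70.5 to 75.2), 62.1% (60.5 to 63.6) and 47.6% (45.9 to 49.3), with 73.3% (68.5 to 77.6) for Hoxc6 only. Of distal domains lost under Hoxc6 only, EBs held 44.6% (37.4 to 52.0), and at 150 to 249 bp 43.9% (33.7 to 54.7) of 82. These shares were below those of members, but the intervals overlapped. The set lost under Hoxc6 only is small and its intervals are wide, so the overlap does not show that the shares were equal.

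**Figure D2:**
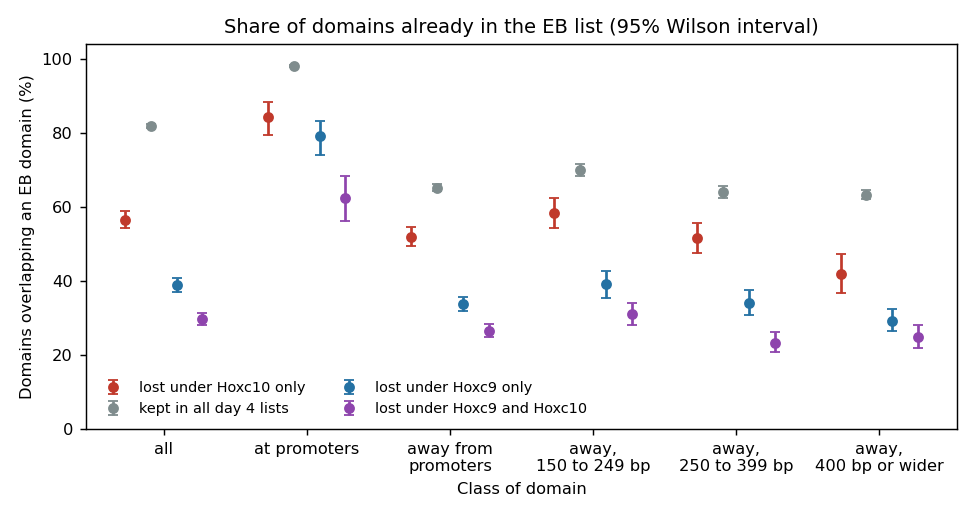
Percent of domains that overlapped an EB domain, with 95% Wilson intervals, for all domains, promoters, distal domains and 3 width classes of distal domains. Members sat below kept domains and above both other posterior sets in every class but promoters, where the intervals of members (79.3 to 88.4) and of domains lost under Hoxc9 only (74.1 to 83.3) overlapped.

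Members open in EBs and members first seen in progenitors differed in where they lay. Of the 982 held by EBs, 206 were at promoters (interval of the share 18.5 to 23.6%), their median GC content was 53.3% and their median distance to a TSS was 13580 bp. Of the 755 not held by EBs, 38 were at promoters (5.03%, 3.69 to 6.83), with 45.3% GC and 58708 bp. Their widths were close, with medians of 289 and 308 bp in progenitors. The promoter difference was not particular to the members. EBs held promoters more often than distal domains among kept domains (98.1% and 65.2%). The same held for domains lost under Hoxc9 only (79.1% and 33.7%) and under both (62.5% and 26.6%).

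By position, 14.0% (12.5 to 15.8) of members were at promoters, 6.85% (5.76 to 8.14) overlapped an exon elsewhere, 33.9% (31.7 to 36.1) lay in introns and 45.3% (42.9 to 47.6) between genes. Kept domains were at promoters in 50.8% (50.2 to 51.4), domains lost under Hoxc9 only in 11.6% (10.4 to 12.8) and those lost under both in 8.69% (7.71 to 9.78). Among domains of 150 to 249 bp the promoter share was 12.2% (9.94 to 15.0) of members and 11.7% (10.6 to 12.8) of kept domains, at 250 to 399 bp it was 78 of 647 members (9.77 to 14.8%) and 902 of 4509 kept domains (18.9 to 21.2%), and at 400 bp or wider it was 19.7% (16.3 to 23.7) and 66.8% (66.1 to 67.5). With 50% coverage required, the promoter share of members (27.3%) was below that of domains lost under Hoxc9 only (33.1%), so the order of these sets turned. Distal domains were lost more often, at 10.7% of the 13908 eligible. The median GC content of the central 150 bp was 48.7% in members, 59.3% in kept domains, 48.7% in domains lost under Hoxc9 only and 47.3% in those lost under both.

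Sequence was not used by the rule either. The following shares are for the central 150 bp of distal domains, counting a match on either strand. The posterior Hox core TTTAT was found in 27.5% (25.3 to 29.8) of members and in 27.5% (26.7 to 28.2) of kept domains, against 30.4% (28.6 to 32.3) and 30.5% (28.7 to 32.3) of domains lost under Hoxc9 only and under both. The TAAT core was in 50.2% (47.6 to 52.7) of members, 48.0% (47.2 to 48.9) of kept domains, 54.9% and 56.6%. Matches to TTTAT and TAAT can overlap each other. In all distal progenitor domains at least 150 bp wide the shares were 29.6% and 52.8%. The intervals of members and kept domains thus overlapped for TTTAT over all distal domains. They also overlapped among distal domains held by EBs, at 20.2% (17.6 to 23.2) and 20.3% (19.4 to 21.2), but among those not held by EBs members had fewer, at 35.4% (32.0 to 39.0) against 40.9% (39.4 to 42.3). Domains not held by EBs that were lost under Hoxc9 only or under both were like the members, at 33.7% (31.4 to 36.1) and 32.7% (30.7 to 34.9). The share of all such distal domains was 36.8%.

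The hexamer AGGTCA was in 10.5% (9.06 to 12.2) of distal members, near the 11.3% (10.8 to 11.9) of kept domains, and in 17.1% (15.6 to 18.6) of domains lost under Hoxc9 only, 14.3% (13.0 to 15.7) of those lost under both and 12.7% of all distal progenitor domains. The difference from the set lost under Hoxc9 only remained within 40 to 55% GC, at 11.5% (9.67 to 13.6) against 18.6% (16.7 to 20.5). Among distal domains not held by EBs it was 11.0% (8.93 to 13.5) of 717 members against 15.9% (14.8 to 17.0) of kept domains and 19.4% (17.5 to 21.5) and 15.4% (13.9 to 17.1) of the other sets, and among those held by EBs all intervals of the lost sets overlapped, with 10.1%, 12.4% and 11.3%.

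For 5 of 25 motifs the intervals of distal members and kept domains did not overlap. The SOX motif ACAATG was in 15.7% (14.0 to 17.7) of members and 13.3% (12.7 to 13.9) of kept domains, against 16.7% of all distal progenitor domains. It was in 16.8% (15.4 to 18.4) of domains lost under Hoxc9 only and 21.3% (19.8 to 22.9) of those lost under both posterior factors. TEAD factors, which act in the Hippo pathway, bind GGAATG. This was in 13.3% (11.7 to 15.1) of members, 9.46% (8.96 to 9.99) of kept domains, 10.1% (8.95 to 11.4) of domains lost under Hoxc9 only, 13.7% (12.5 to 15.1) of those lost under both and 11.3% of all. The GC box GGGCGG, bound by SP and KLF factors, was in 5.63% (4.57 to 6.91) of members and 11.5% (11.0 to 12.1) of kept domains, with 8.06% of all, and within 40 to 55% GC in 1.47% (0.894 to 2.41) and 3.76% (3.35 to 4.22). Domains lost under Hoxc9 only and under both had it in 6.90% (5.94 to 8.01) and 4.41% (3.69 to 5.27), which overlapped the members. Within 40 to 55% GC these sets had 4.06% (3.20 to 5.14) and 2.64% (2.02 to 3.46). The PBX-Hox composite TGATTGAT was rare, in 1.94% (1.36 to 2.78) of members, 0.902% (0.750 to 1.08) of kept domains and 1.29% of all. Intervals of the sets lost under Hoxc9 only (0.736 to 1.60%) and under both (1.10 to 2.04%) overlapped the members. So did that of the set lost under Hoxc6 only (2.33 to 8.76%). Within 40 to 55% GC these intervals were 0.616 to 1.62%, 1.09 to 2.21% and 2.95 to 11.9%, and again overlapped the members. The AP-1 motif TGANTCA was in 5.69% (4.63 to 6.99) of members, 4.23% (3.89 to 4.60) of kept domains and 4.67% of all. Domains lost under Hoxc9 only and under both overlapped the members, at 4.90% (4.10 to 5.86) and 4.91% (4.15 to 5.81). The intervals of members and kept domains overlapped for the other 20 motifs. Of these, the fragment AGGGGGC of the CTCF motif was in 5.29% (4.27 to 6.55) of members, 6.32% (5.91 to 6.76) of kept domains, 3.07% (2.47 to 3.80) of those lost under both and 4.79% of all. Within 40 to 55% GC the intervals of members and kept domains overlapped for the SOX motif (16.9% and 16.3%), TEAD (13.2% and 11.0%) and AP-1 (5.99% and 4.90%), and remained apart for the GC box and the PBX-Hox composite (2.36%, 1.59 to 3.48, and 1.13%, 0.918 to 1.40). No p-value is attached to any of these shares.

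**Figure D3:**
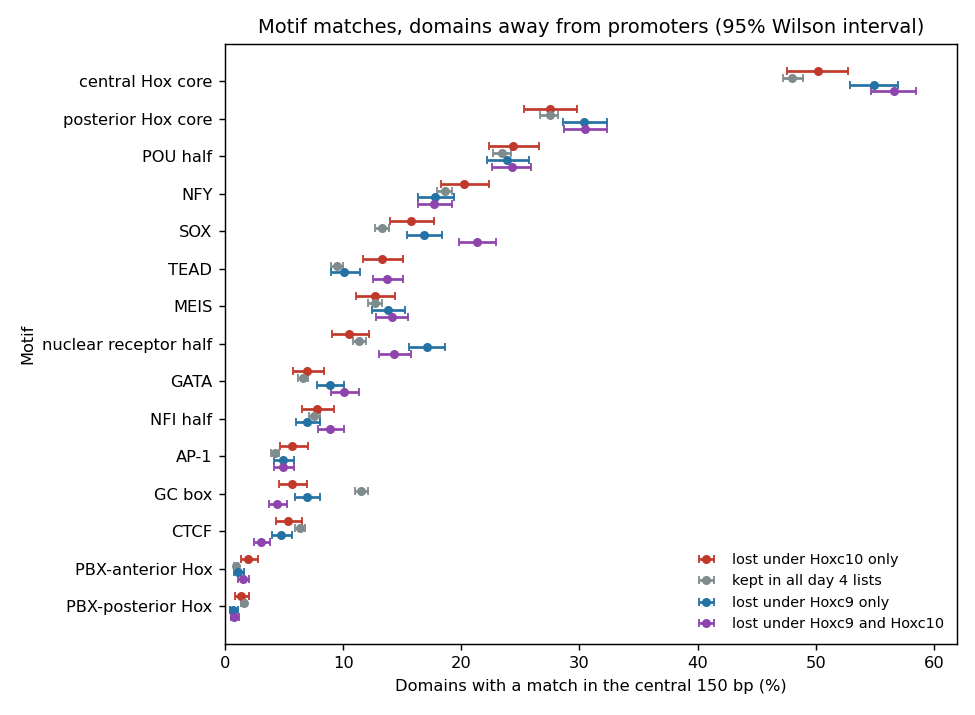
Percent of distal domains with a match to each of 15 motifs in the central 150 bp, with 95% Wilson intervals. Members were near kept domains for the nuclear receptor hexamer and the posterior Hox core, and near the domains lost under both posterior factors for TEAD.

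Taking the protein-coding gene with the nearest TSS, 14041 genes had an eligible domain and 1516 of them had a member. Of the 1516, 1331 genes had 1 member, 156 had 2 and 29 had 3 or more. The counts by gene list are descriptions against the background of 6.44% of eligible domains. Among distal eligible domains alone the background was 10.7%. Distal shares lay above it for type II cadherins and for Onecut and Ebf, spinal interneuron, forebrain and midbrain, and mesoderm and endoderm factors. The distal shares of the other lists, among them axon guidance genes and SoxB and SoxC factors, lay below it. No interval was computed for distal shares.

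Type II cadherins, the adhesion molecules that sort motor neurons into pools, had the highest share. Of their 60 eligible domains 10 (16.7%, 9.31 to 28.0) were members, all of them distal. Loss in this list was not particular to the members. A further 10 of its domains were lost under Hoxc9 only and 9 under both posterior factors, where the backgrounds were 9.35% and 8.80%. Of distal eligible domains of this list, 20.4% were members, against 10.7% of all. Cdh11 alone accounted for 5 of 12 eligible domains, and it also had 5 domains lost under Hoxc9 only and 2 lost under both. The members near Cdh11 lay between genes on chromosome 8, 286.3 to 657.0 kb from its TSS. The widest (chr8:103272513-103273087) had domains of 236 bp in EBs, 575 bp in progenitors, 849 bp in the No Dox control, 348 bp in iHoxc6 and 210 bp in iHoxc9. Cdh6 had 2 of 13, Cdh20 2 of 8 and Cdh7 1 of 6. The Cdh20 site shown above (domain chr1:105012182-105013622, 243.7 kb from the TSS) was 1441 bp wide in progenitors, 254 bp in EBs, 639 bp in the control, 584 bp in iHoxc6 and 176 bp in iHoxc9.

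Factors of other neural regions followed. Forebrain and midbrain factors had 7 of 44 (15.9%, 7.93 to 29.4) and dorsal neural tube and crest factors 6 of 41 (14.6%, 6.88 to 28.4), and the intervals of both lay above the background. The dorsal list also had 11 domains lost under Hoxc9 only and 6 lost under both, and the forebrain list 3 and 6. Both lists thus also had losses outside the members. No share of eligible domains was computed for those losses, so they were not set against their backgrounds of 9.35% and 8.80%. Away from promoters the member shares of the forebrain and dorsal lists were 13.3% and 7.41%, around the 10.7% of all distal domains. Lhx2, a forebrain and dorsal interneuron factor, had 2 of 5. Its promoter domain (chr2:38339257-38339798) was 689 bp wide in EBs, 542 bp in progenitors, 136 bp in the control, 241 bp in iHoxc6 and 297 bp in iHoxc9. The promoter of Emx1, a cortical homeobox gene (chr6:85187311-85187900), held domains of 981, 590, 535, 593 and 568 bp in these lists in the same order, and the nearest iHoxc10 domain lay 281 bp away. It was among the members with wide domains in every other list. The promoter of Zic1, a zinc finger factor of the dorsal neural tube (chr9:91364654-91365472), had 472, 819, 656, 330 and 43 bp. Rax, Dlx6, Zic4, Gdf7 and Pax3 each had 1 member.

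Onecut and Ebf factors, which act in newly born motor neurons, had 6 of 45 (13.3%, 6.26 to 26.2). Onecut1 had 2 of 5. The wider (chr9:74867820-74868621, in an intron 5.9 kb from the TSS) had 158 bp in EBs, 802 bp in progenitors, 428 bp in the control, 94 bp in iHoxc6 and 143 bp in iHoxc9. Ebf1, Ebf2 and Onecut2 had 1 each. Spinal interneuron factors had 7 of 64 (10.9%, 5.40 to 20.9), among them the only eligible domain of Evx2, a V0 interneuron factor beside the HoxD cluster, and that of Lhx5.

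For motor neuron and patterning genes each interval included the background. Motor neuron identity genes had 1 of 49 (2.04%, 0.361 to 10.7), near Lmo4, a LIM-only cofactor. That domain (chr3:143789952-143790492) lay 411.8 kb from the TSS. EBs did not hold it, and it was 541 bp in progenitors, 435 bp in the control, 569 bp in iHoxc6 and 595 bp in iHoxc9, with the nearest iHoxc10 domain 76.1 kb away. Proneural and Notch genes had 4 of 105 (3.81%, 1.49 to 9.39), near Neurod2, Notch2, Atoh1 and Jag1. The Jag1 site (Notch ligand, chr2:137153154-137153674, 36.5 kb from the TSS) was absent in EBs and had 521, 468, 453 and 43 bp from progenitors to iHoxc9. Motor column and pool genes had 8 of 123 (6.50%, 3.33 to 12.3). Their widest was the Nr2f1 site (chr13:79141380-79141900, 941.6 kb from the TSS), with 0 bp in EBs, 521 bp in progenitors, 394 bp in the control, 159 bp in iHoxc6 and 238 bp in iHoxc9. Nr2f1 encodes an orphan nuclear receptor. Ventral progenitor factors had 5 of 83 (6.02%, 2.60 to 13.3), with 2 near Foxa2 of the floor plate and 1 each near Dbx2, Sp8 and Nkx6-1.

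For genes of the patterning signals the intervals also included the background. RA genes had 3 of 60 (5.00%, 1.71 to 13.7), near Cyp26a1, which degrades RA, and the receptors Rxrg and Rarb. The Rarb domain (chr14:16573512-16574341, in an intron 1.2 kb from a TSS) was absent in EBs, 830 bp wide in progenitors, 917 bp in the control, 235 bp in iHoxc6 and 36 bp in iHoxc9. Its iHoxc9 remnant was among the narrow ones, and the nearest iHoxc10 domain was 417 bp away. Hedgehog genes had 2 of 45 (4.44%, 1.23 to 14.8), near the Hedgehog receptor gene Ptch1 and the effector Gli2. The Gli2 site (chr1:118913655-118914280, intronic) had 0, 626, 190, 239 and 95 bp from EBs to iHoxc9.

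SoxB and SoxC factors had 7 of 85 (8.24%, 4.05 to 16.0), of which Sox6 had 3 and Sox5 had 2. The Sox1 site (chr8:12429880-12431250, 34.6 kb from the TSS) was 1371 bp wide in progenitors, 443 bp in EBs, 99 bp in the control, 973 bp in iHoxc6 and 45 bp in iHoxc9. Sox1 is a marker of neural progenitors, and at this site the control and iHoxc9 were the narrow lists. Axon guidance genes had 19 of 221 (8.60%, 5.57 to 13.0). Sema3d, a secreted repellent, had 2 of 3, and Slit2, Epha5 and Unc5d had 2 each. At the promoter of the semaphorin receptor gene Nrp1 (chr8:128359515-128360097) the widths were 570, 583, 318, 1508 and 469 bp from EBs to iHoxc9.

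**Figure D4:**
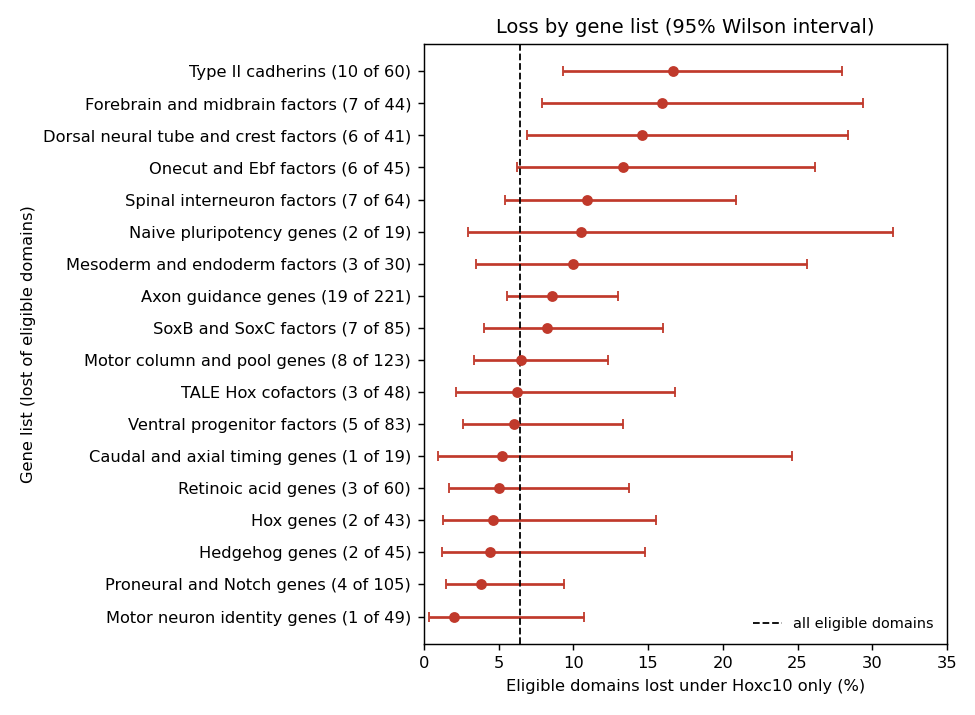
Percent of the eligible domains of each of 18 gene lists that were lost under Hoxc10 only, with 95% Wilson intervals and the 6.44% of all eligible domains as a dashed line. Intervals lay above the line for type II cadherins, forebrain and midbrain factors and dorsal neural tube and crest factors, and overlapped it for the other 15 lists. Losses under Hoxc9 only and under both posterior factors, which these lists also had, are not drawn.

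Hox genes themselves had 2 of 43 (4.65%, 1.28 to 15.5), with an interval that included the background. The member at Hoxb2, a hindbrain gene, lay 2.8 kb from its TSS (chr11:96354461-96354899) with 284 bp in EBs, 439 bp in progenitors, 454 bp in the control, 40 bp in iHoxc6 and 131 bp in iHoxc9. The member at Hoxc9 overlapped its coding exon (chr15:102981702-102982273) with 233, 572, 266, 45 and 469 bp. In iHoxc9 cells that sequence is also present as the transgene, so the 469 bp cannot be told apart from a domain on the transgene, and membership of this site depends on it. The TALE cofactors of Hox proteins had 3 of 48 (6.25%, 2.15 to 16.8), 2 near Meis2 and 1 near Pbx3. Caudal and axial timing genes had 1 of 19 (5.26%, 0.935 to 24.6), near Cdx4, naive pluripotency genes 2 of 19 (10.5%, 2.94 to 31.4), near Klf4 and Tfcp2l1, and mesoderm and endoderm factors 3 of 30 (10.0%, 3.46 to 25.6), near Hand2 and Meox2.

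At nearly all of the widest members the iHoxc9 domain was narrow. The widest of all lay in an intron of Def8 (chr8:123430979-123433032), with 690 bp in EBs, 2054 bp in progenitors, 3163 bp in the control, 3157 bp in iHoxc6 and 33 bp in iHoxc9. A site in an intron of Ston2, which encodes an endocytic adaptor, had 711, 1312, 575, 110 and 24 bp. The sites near Spata16, Slc44a5, Ppp2r2b, Cryl1 and St8sia4 were absent in EBs, 1064 to 1208 bp wide in progenitors, and 36 to 144 bp in iHoxc9. The promoter of Vxn, a regulator of neurogenesis (chr1:9601182-9602297), stood apart, with 72 bp in EBs, 1116 bp in progenitors, 1046 bp in the control, 830 bp in iHoxc6 and 762 bp in iHoxc9, and the nearest iHoxc10 domain 16.2 kb away. Of other wide promoter members, those of Notum, which inactivates Wnt ligands, Large2, Zmynd8 and AC109138.7 (overlapping Clcf1) had 24 to 46 bp in iHoxc9. Among the 10 widest members and the 5 widest at promoters, Vxn was the only one with an iHoxc9 domain above 176 bp.

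**Figure D5:**
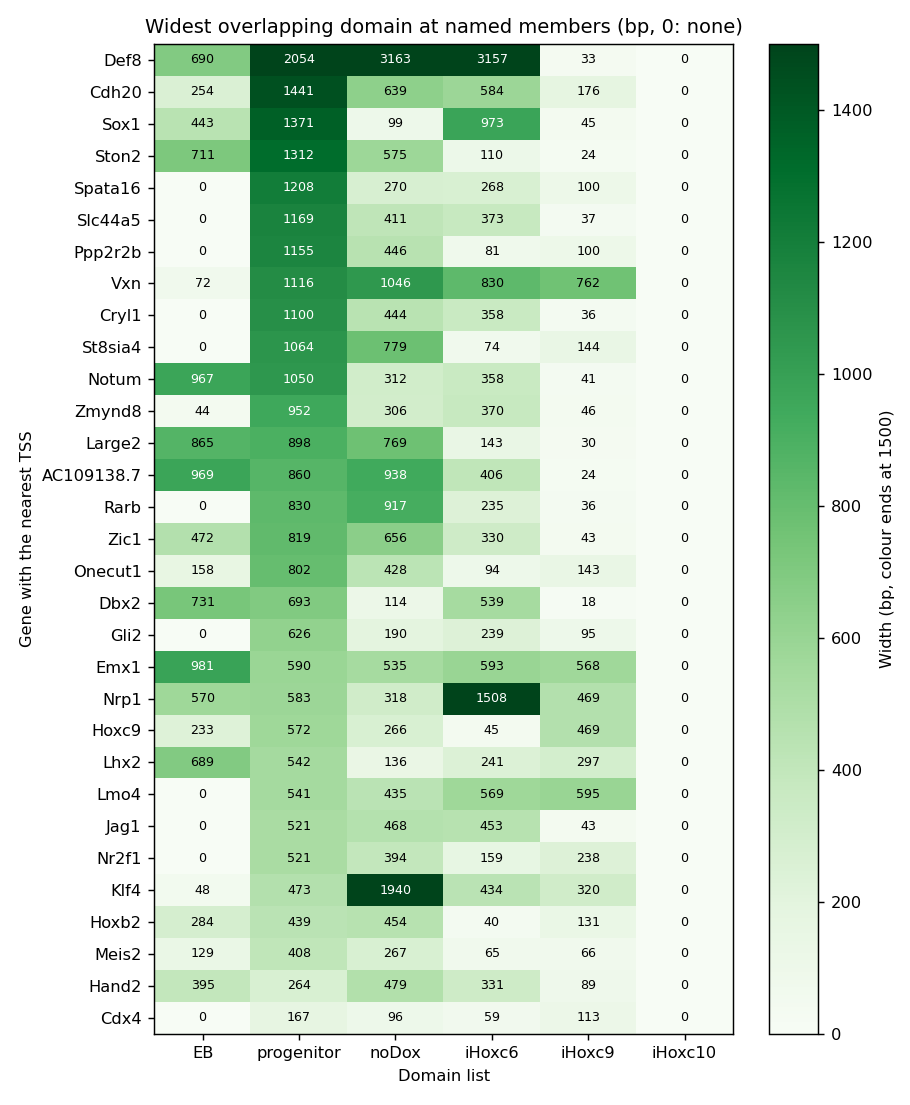
Width in bp of the widest overlapping domain in each of the 6 lists at 31 named members, labelled by the gene with the nearest TSS, where 0 means that the list held no domain and darker green a wider one. iHoxc10 is 0 throughout by the rule, and iHoxc9 is under 50 bp at many sites but 762 bp at Vxn, 595 bp at Lmo4 and 568 bp at Emx1.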

How the data were processed

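Paired-end ATAC-seq reads were mapped by the authors to mm10 (GRCm38) with Bowtie2 (2.2.2 per the submitters' processing notes, which also name Picard 2.8.2 without a role), and accessible domains were called with DomainFinder on both replicates of a group. The values used are the start and end coordinates in bp as deposited by the authors, which carry no count, signal or score. The caller's settings and the sort key of the lists are not given in the sources used here.

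Overlaps, distances and widths were computed in Python 3.11.15 with NumPy 2.4.6, SciPy 1.17.1 and pysam 0.24.0, with samtools 1.23.1 for indexing and Matplotlib 3.10.9 for plots. TSS of protein-coding genes came from GENCODE M21 on GRCm38.p6. Of 55 checks of this code on simulated data, 0 differed. A motif counted once per domain when its letters occurred in the central 150 bp. Wilson intervals had a level of 95%.

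Named were the 10 genes with the most members, up to 4 genes of each of 18 gene lists, the 10 widest members, the 5 widest at promoters and the widest of each list. Members, gene lists and motifs were chosen with earlier results of these data known. Alternatives changed the minimum width, the overlap, the list lengths, the lists required, the promoter distance and the motif window. The result for 1 marker gene is not reported here.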

Additional observations from a re-analysis of the deposited data

How the results depend on the processing

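Of 65 values under alternative settings, 30 stayed within the counting interval of the reported value (counts within 1.5 times) and 35 moved. The order given is members, share in EBs, share at promoters, median width in progenitors, share with the CTCF fragment and share with TTTAT, each where it moved. With a minimum of 300 bp there were 854 members, 15.9% at promoters, a median of 404 bp and 4.45% with CTCF. With 500 bp there were 267, with 50.6%, 22.1%, 600 bp, 4.49% and 28.1%. With no minimum there were 3410, with 60.4%, 11.9%, 154 bp and 9.15% with CTCF. Where a list had to cover 50% of a domain, 72.9% were in EBs, 27.3% at promoters, the median was 348 bp and 22.8% had TTTAT. Requiring no iHoxc10 domain within 500 bp gave 11.7% at promoters, lists of equal length by width a median of 310 bp, and a TSS within 5 kb 25.4% at promoters. Whole domains held CTCF in 11.5% and TTTAT in 42.2%, and distal domains held TTTAT in 27.5%. Leaving out the No Dox list moved none of the 6 values. Chosen after seeing the data were 3 settings. Lists of equal length by place in the list gave 1157 members. An iHoxc9 domain of at least 150 bp gave 541 members, 19.2% at promoters, a median of 309 bp and 29.2% with TTTAT. Without the iHoxc9 list there were 4591, with 39.9% in EBs, 10.7% at promoters, 4.51% with CTCF and 27.7% with TTTAT, which adds the domains lost under both factors. No paired analysis was possible because each group has 1 list made from both replicates. Depth is unknown, so a domain missing from a list may be one that its depth did not show.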

Other observations

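Of the members, 18.5% had another member within 100 kb, and whether this was more or less than for eligible domains was not tested. Among windows of 1 Mb, the most members (8 of 43 eligible domains) fell in chromosome 4, 145000001 to 146000000, near the zinc finger genes Gm13212 and Zfp990, and 5 of 45 fell in 147000001 to 148000000, near Zfp982, Zfp985 and Zfp988. In these windows the repeat-masked share of the members' central 150 bp averaged 35.2% and 25.6%, against a mean of 10.8% over all members. The 6 members assigned to Zfp386, the gene with the most, lay in a window of chromosome 12 (115000001 to 116000000) that holds 58 annotated immunoglobulin variable segments, which were not among the protein-coding genes used for naming, and their repeat-masked share averaged 42.0%. Their part in these counts was not tested. On chromosome 16, 61000001 to 62000000, 4 of 5 eligible domains were members, with 0 lost under Hoxc9 only or under both, near Epha6, an ephrin receptor gene, and Nsun3.

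Of the 14041 genes with an eligible domain, 262 lost each of theirs, and 9 of these had 2 or more. Among the genes with most members, Cdh11 (5 of 12 eligible domains), Itln1, an intelectin gene (4 of 14), and Gm13212 (4 of 13) followed Zfp386 (6 of 19), with 3 members each at Gm15217, Gm826, Gm5136, Tmem232 and Ccn1, a matricellular YAP target gene. Ppp1r3a, a glycogen-targeting phosphatase subunit of muscle, lost 3 of 3, and Il10, an anti-inflammatory cytokine, and Ptger2, a prostaglandin receptor, lost 2 of 2. By chromosome, the share of eligible domains that were members ran from 5.00% (4.08 to 6.12) on chromosome 7 to 8.14% (6.85 to 9.64) on chromosome 3 among autosomes. It was 3.90% (2.68 to 5.66) on X, where the interval lay below the 6.44% of all chromosomes. Among the 249 eligible distal domains on X it was 7.23% against 10.7%, and no interval was computed for that share. Loss under Hoxc9 only was also low on X, at 6.02% against 9.35% of all chromosomes.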
